A study of Homo sapiens with 6 samples.

Results

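EIF4G3 was examined here as a target of the RNA helicase DHX9 in HEK293 cells, an established human line of embryonic kidney origin. The peaks of the gene were taken from 2 deposited lists by position, as all regions that overlap chr1:21132972-21503340 (hg19) on the minus strand. This gave 126 peaks of the antibody labelled DHX9-Rb and 55 peaks of the antibody labelled DHX9-mAb, or 181 of the 28449 peaks in both lists. The gene was chosen by its high peak numbers in these same lists, shared peaks included, so those numbers are given as a description and nothing is tested on them.

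The assay, FLASH, cross-links proteins to RNA with ultraviolet light, recovers one protein with an antibody and sequences the RNA held by it. The study had 6 samples of HEK293 cells in 3 groups, with 2 biological replicates each: DHX9-mAb (an antibody from Santa Cruz), DHX9-Rb (from Abcam) and the control immunoglobulin IgG-Rb. Each DHX9 antibody has 1 list of regions standing for both of its replicates, and the IgG-Rb samples were not analysed here. The lists hold positions and strands without heights, folds or p-values, so the depth behind a peak is unknown and there is no replicate error. Intervals on shares are 95% Wilson intervals, which cover counting error only and treat neighbouring peaks as separate, although peaks of 1 transcript share their source.

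EIF4G3, also known as eIF4GII, encodes a scaffold of translation initiation. Proteins of the eIF4G family hold together the cap-binding protein eIF4E, the RNA helicase eIF4A and, through eIF3, the small ribosomal subunit, and they also contact poly(A)-binding protein. DHX9 acts mainly in the nucleus, where it unwinds double-stranded RNA such as the hairpins that paired inverted Alu repeats form within introns. Because the transcript is read from the minus strand, its 5′ end lies at the highest coordinate, and distances below are counted from position 21503340 into the gene.

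EIF4G3 is a long gene that consists almost wholly of introns. The interval used for the peaks spans 370369 nt in hg19. In GENCODE release 29, which describes the newer assembly GRCh38, the gene (ENSG00000075151.20) runs from 20806292 to 21176888 of chromosome 1 and spans 370597 nt, 228 nt more. Exons of any of its 14 transcripts cover 2.59% of that length. The coding transcript EIF4G3-205 has 35 exons, and its longest intron, the second, measures 87.0 kb. Another coding transcript, EIF4G3-201, starts 125894 nt inside the gene. These features are given on GRCh38 only. No peak was placed on them, and no peak is called exonic or intronic, since an hg19 annotation was not used here.

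Both antibodies marked the 5′ part of EIF4G3 densely and the remaining gene sparsely. The 5′ part was set at position 21400000 and above, a stretch of 103341 nt. It held 115 of the 126 DHX9-Rb peaks, or 91.3% (85.0 to 95.1), and 53 of the 55 DHX9-mAb peaks, or 96.4% (87.7 to 99.0). The other 267028 nt held 11 DHX9-Rb and 2 DHX9-mAb peaks. DHX9-Rb thus had 11.1 peaks per 10 kb in the 5′ part and 0.412 per 10 kb in the remainder, a 27.0-fold difference. DHX9-mAb had 5.13 and 0.0749 peaks per 10 kb, a 68.5-fold difference that rests on 2 peaks in the sparse part. In covered sequence, DHX9-Rb peaks took up 27.8% of the 5′ part and 0.685% of the remainder, while for DHX9-mAb these shares were 11.9% and 0.106%. The border was drawn with the peak positions known. No peak of either list crossed it or either end of the gene.

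**Figure D1:**
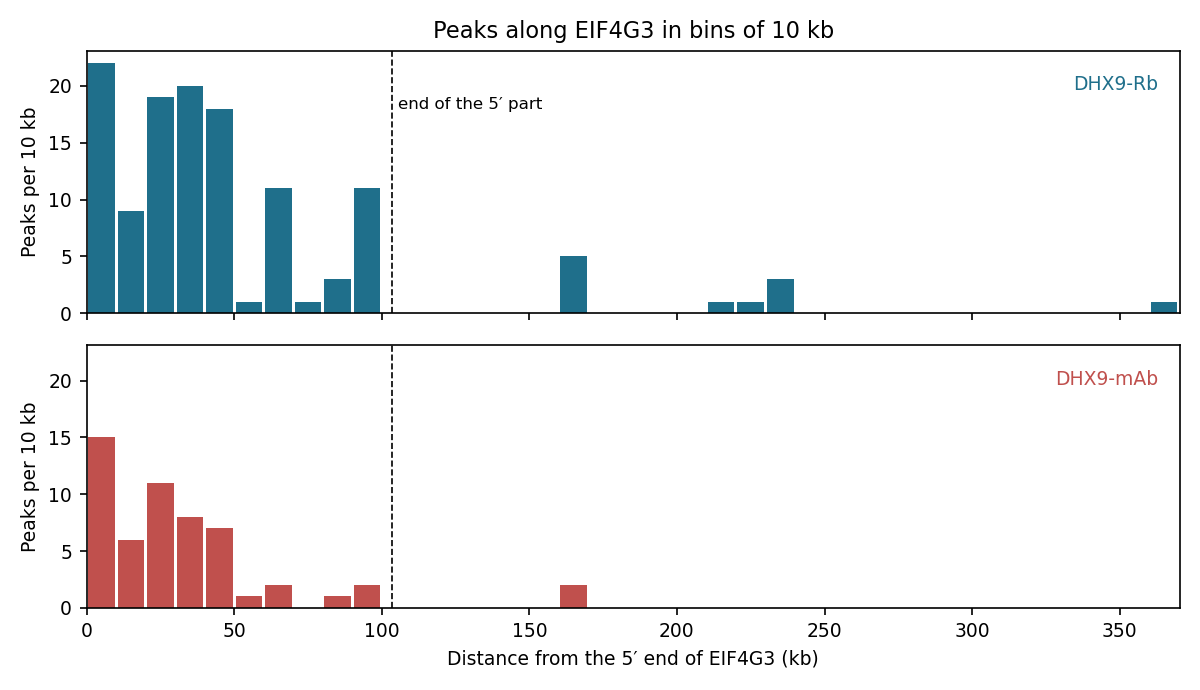
Number of peaks (vertical axis) in bins of 10 kb by distance from the 5′ end of EIF4G3 in kb (horizontal axis), for DHX9-Rb (top) and DHX9-mAb (bottom); the dashed line is the end of the 5′ part. The first bin is the highest in both lists, with 22 DHX9-Rb and 15 DHX9-mAb peaks, and most bins beyond the line are empty.

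Within the 5′ part the peaks were not evenly spread either. The bin of the first 10 kb was the fullest in both lists, with 22 DHX9-Rb and 15 DHX9-mAb peaks, and 62.7% and 44.2% of its sequence lay in peaks. The bins from 20 to 30 kb (19 DHX9-Rb and 11 DHX9-mAb peaks) and from 30 to 40 kb (20 and 8 peaks) completed the top 3 of each list, so the same 3 bins led for both antibodies. Together these bins held 61 DHX9-Rb peaks, 48.4% of those in the gene (39.9 to 57.1), and 34 DHX9-mAb peaks, 61.8% (48.6 to 73.5). Of the 38 bins along the gene, 10 had peaks of both antibodies, 5 had DHX9-Rb peaks alone, none had DHX9-mAb peaks alone and 23 had no peak.

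The DHX9-mAb peaks lay somewhat nearer the 5′ end than the DHX9-Rb peaks. The median peak midpoint was 28.0 kb from the 5′ end with DHX9-mAb and 36.9 kb with DHX9-Rb. The upper quartiles were 43.3 kb and 67.8 kb. There are no replicate lists from which an error of these medians could be had. The DHX9-mAb antibody gave no peak in the first 2.2 kb: its outermost peak, chr1:21500921-21501124, began 2216 nt inside the gene. DHX9-Rb had 3 peaks outside it, from chr1:21502465-21502637, which began 703 nt inside the gene, to 21501357. Neither list had a peak at the outer end of the interval itself.

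**Figure D2:**
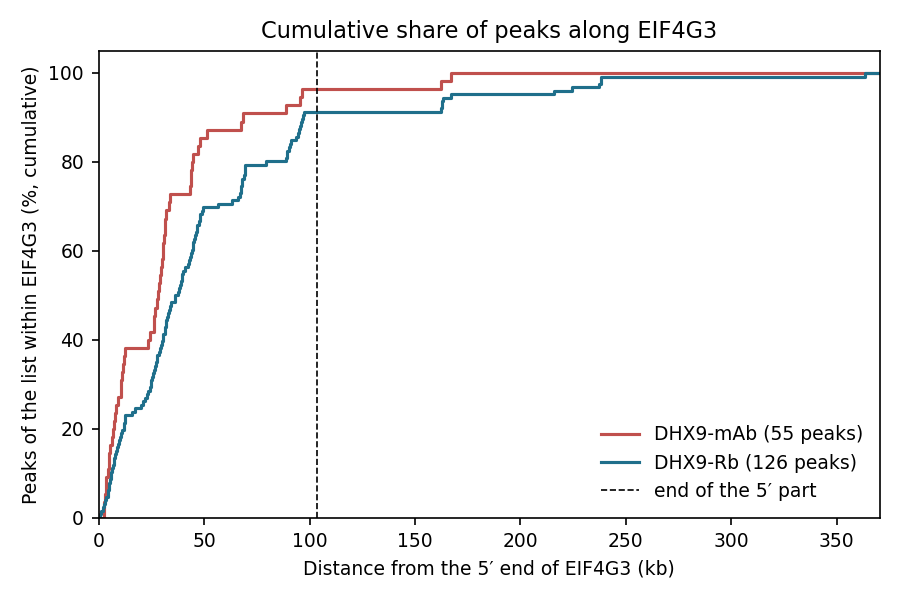
Cumulative share of the peaks of each list within EIF4G3 (vertical axis, percent) by distance of the peak midpoint from the 5′ end in kb (horizontal axis). Past about the first 5 kb the DHX9-mAb line runs above the DHX9-Rb line, and the medians are 28.0 kb and 36.9 kb.

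Peaks of either antibody less than 1 kb apart were joined into groups, which gave 14 groups in the 5′ part and 6 in the remaining gene. The 8 groups with at least 5 DHX9-Rb peaks all lay in the 5′ part. The group nearest the 5′ end, chr1:21490481-21502637, was 12.2 kb long and held 29 DHX9-Rb and 21 DHX9-mAb peaks. Peaks covered 67.7% of it with DHX9-Rb and 45.5% with DHX9-mAb. The next large group, chr1:21469083-21478921, held 25 DHX9-Rb and 18 DHX9-mAb peaks over 9.84 kb. Between them lay a group of 5 DHX9-Rb peaks and 1 DHX9-mAb peak at chr1:21479943-21483075 and 2 single DHX9-Rb peaks. Further in, chr1:21462090-21467407 held 10 peaks of DHX9-Rb without any of DHX9-mAb, and chr1:21453613-21461003 held 17 and 7. The last 3 of the 8 groups held 10 DHX9-Rb and 2 DHX9-mAb peaks at chr1:21433652-21437322, 6 and 1 at chr1:21411967-21414894, and 8 and 2 at chr1:21406014-21409831, which ended 97.3 kb from the 5′ end.

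Most neighbouring peaks of a list lay close together in the 5′ part, between groups as well as inside them counted. In the 5′ part the median gap between neighbouring DHX9-Rb peaks was 153 nt, and 102 of 114 gaps (89.5%, 82.5 to 93.9) were under 1 kb. With DHX9-mAb the median gap was 195.5 nt, and 41 of 52 gaps (78.8%, 66.0 to 87.8) were under 1 kb. The longest gap in the 5′ part was 9.68 kb for DHX9-Rb, from 21423972 to 21433651, and 20.0 kb for DHX9-mAb, from 21414895 to 21434900, which spans the former. Between neighbours, 3 DHX9-Rb pairs overlapped each other and 25 were separated by fewer than 50 nt. A peak number therefore counts regions as the peak caller divided them.

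Most DHX9-mAb peaks of EIF4G3 had a DHX9-Rb peak on top of them. With an overlap of at least 1 nt on the same strand, 53 of the 55 DHX9-mAb peaks were overlapped, 96.4% (87.7 to 99.0), where the share over the whole DHX9-mAb list was 88.0%. In the other direction 55 of the 126 DHX9-Rb peaks were overlapped by DHX9-mAb, 43.7% (35.3 to 52.4), where the share over the whole DHX9-Rb list was 28.6%. The whole-list share of DHX9-mAb peaks lies within the interval for the gene. The whole-list share of DHX9-Rb peaks lies below the interval for the gene, but shared peaks were among the numbers the gene was chosen by. The gene is also crowded with peaks, and the part of crowding in the overlap was not tested. The overlap rule mattered. When at least 50% of both peaks had to overlap, 28 DHX9-mAb peaks (50.9%, 38.1 to 63.6) still had a partner, where the whole list had 62.1%. By that rule 28 DHX9-Rb peaks (22.2%, 15.8 to 30.2) had one, where the whole list had 19.6%. Both whole-list shares then lay within the interval for the gene. In nucleotides, 9720 nt of EIF4G3 were covered by both antibodies. That is 77.2% of the DHX9-mAb sequence in the gene and 31.8% of the DHX9-Rb sequence, where the whole lists gave 73.8% and 22.0%.

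Among the 8 groups with at least 5 DHX9-Rb peaks, overlap was most frequent in the 2 largest. Nearly all DHX9-mAb peaks of the gene had a partner, so these shares largely follow from the number of DHX9-mAb peaks in each group. In the group nearest the 5′ end DHX9-mAb overlapped 22 of 29 DHX9-Rb peaks, 75.9% (57.9 to 87.8), and in the group at chr1:21469083-21478921 16 of 25, 64.0% (44.5 to 79.8). At chr1:21453613-21461003 it overlapped 7 of 17, 41.2% (21.6 to 64.0), and at chr1:21433652-21437322 2 of 10, 20.0% (5.67 to 51.0). The group of 10 DHX9-Rb peaks at chr1:21462090-21467407 had 0 overlapped; taking 3 counts of 10 as the limit that a count of 0 allows, the share could be up to 30.0%. With its neighbours on either side it formed the longest run of DHX9-Rb peaks without a DHX9-mAb partner, 13 peaks over 8.88 kb from 21460387 to 21469271. The median width in this run was 215 nt, the same as for all DHX9-Rb peaks of the 5′ part. The longest runs of overlapped peaks had 9 DHX9-Rb peaks each, at chr1:21490481-21494343 and chr1:21471614-21475745, with median widths of 289 nt and 291 nt.

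**Figure D3:**
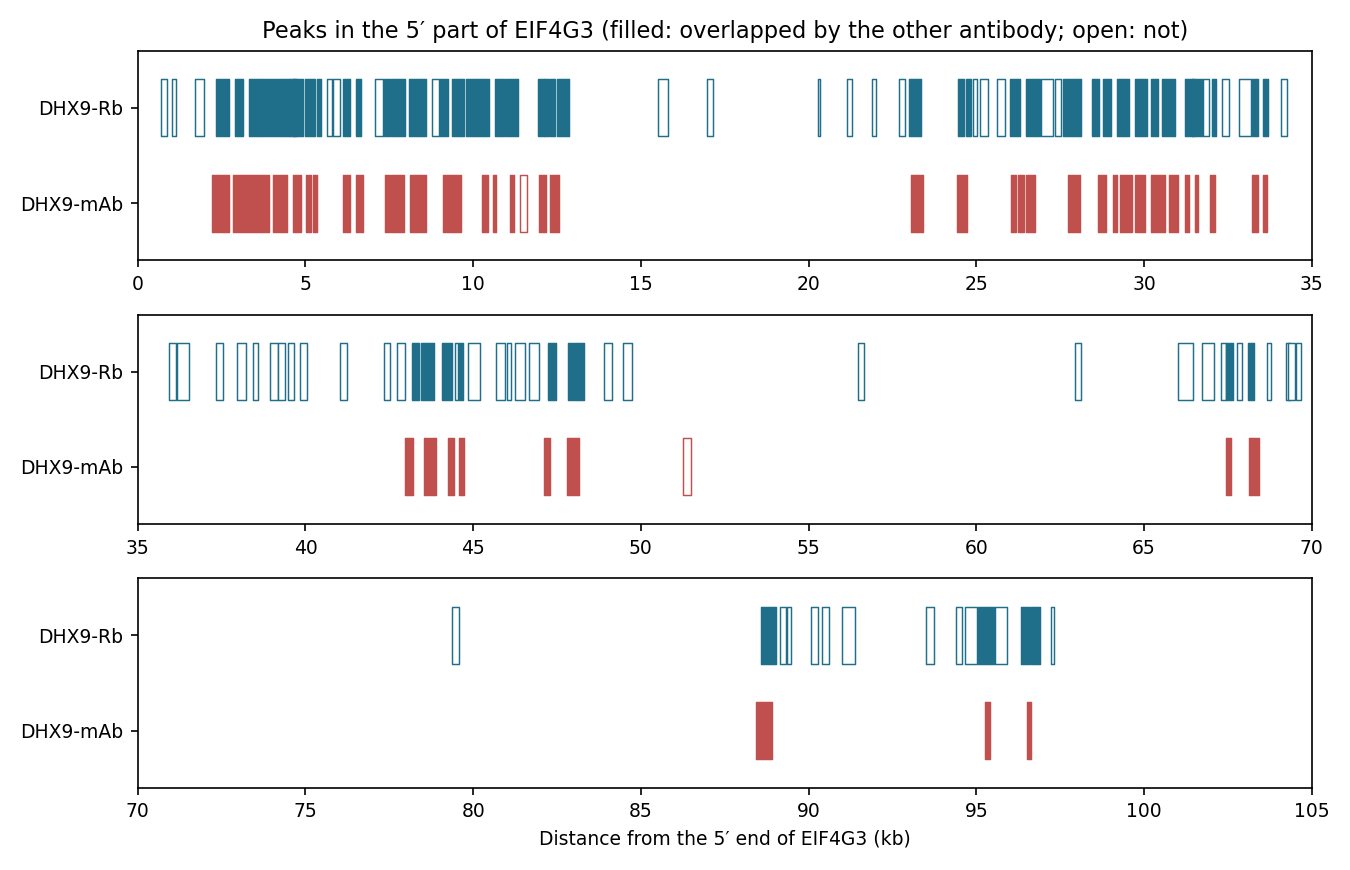
Every peak in the 5′ part of EIF4G3 drawn to scale by distance from the 5′ end in kb (horizontal axis, 3 rows of 35 kb), with DHX9-Rb above DHX9-mAb; filled boxes overlap a peak of the other antibody and open boxes do not. Filled DHX9-Rb boxes crowd the first 12.9 kb and the stretch around 30 kb, while the 13 peaks from 34.1 to 43.0 kb are all open.

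DHX9-mAb peaks were fewer beside DHX9-Rb peaks away from the 5′ end. When the 5′ part was divided again at position 21450000, the outer 53.3 kb held 88 DHX9-Rb and 48 DHX9-mAb peaks, a ratio of 1.83. The inner stretch up to position 21400000 held 27 and 5 peaks, a ratio of 5.40, and the remaining gene 11 and 2, a ratio of 5.50. Over the whole lists the ratio was 3.16. DHX9-mAb peaks made up 35.3% of the peaks of both lists in the outer stretch (27.8 to 43.6), 15.6% in the inner stretch (6.86 to 31.8) and 15.4% in the remaining gene (4.33 to 42.2). The whole lists had 24.0%. These intervals overlap each other, and the number of DHX9-mAb peaks outside the outer stretch was small. DHX9-mAb overlapped 52.3% of DHX9-Rb peaks in the outer stretch (42.0 to 62.4) and 22.2% in the inner stretch (10.6 to 40.8). In the remaining gene the share was 27.3% (9.75 to 56.6). Nearly every DHX9-mAb peak had a partner in each stretch (46 of 48, 5 of 5 and 2 of 2). The share overlapped thus largely follows from the ratio of peak numbers above and is not a separate result. The intervals of these shares treat neighbouring peaks as separate, and shared peaks were among the numbers the gene was chosen by. They therefore test no difference between the stretches. DHX9-Rb peaks covered 41.8% of the outer and 12.8% of the inner stretch, and their median widths were 221.5 nt and 205 nt. Between these 2 stretches density and width thus moved with the share overlapped. The remaining gene went the other way. Its DHX9-Rb peaks covered 0.685% and had a median width of 164 nt, yet its share overlapped was above that of the inner stretch. The part of density and width in the share was not tested.

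The few peaks beyond the 5′ part lay in small, isolated groups. The only place there marked by both antibodies was 162 to 167 kb inside the gene. At its 3′ side, DHX9-Rb had a peak at chr1:21336115-21336214 and DHX9-mAb one at chr1:21336118-21336213, nearly the same region. Less than 5 kb away, a group of 4 DHX9-Rb peaks at chr1:21339947-21341049 held the other DHX9-mAb peak, chr1:21340735-21340921, which touched 2 of the 4. The other 6 DHX9-Rb peaks had no DHX9-mAb partner. They comprised single peaks at chr1:21287496-21287621 and chr1:21279029-21279190, a group of 3 at chr1:21265062-21266283, and a lone peak at chr1:21139726-21139920, 363 kb inside the gene. The longest stretch without a peak of either list ran over 125 kb from 21139921 to 21265061. The DHX9-Rb peaks there were narrower than those of the 5′ part, with a median width of 164 nt (n = 11) against 215 nt (n = 115), and their widths of 100 to 251 nt lay within the range of the 5′ part, 74 to 668 nt.

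The widths of EIF4G3 peaks were close to those of the whole lists. The median was 212.5 nt for DHX9-Rb (interquartile range 167.25 to 306), where the whole list had 201 nt, and 195 nt for DHX9-mAb (148.5 to 269), where the whole list had 191 nt. The widest peak of DHX9-mAb began 9.09 kb and that of DHX9-Rb 9.80 kb from the 5′ end. That of DHX9-Rb was chr1:21492873-21493540, with 668 nt, and that of DHX9-mAb was chr1:21493698-21494253, with 556 nt. DHX9-Rb peaks overlapped by DHX9-mAb had a median width of 263 nt (n = 55), and those not overlapped 196 nt (n = 71). Over the whole list these medians were 243 nt and 190 nt. Of the 33 DHX9-Rb peaks of 300 nt or more, 22 were overlapped, 66.7% (49.6 to 80.2), and of the 24 under 150 nt, 9 were, 37.5% (21.2 to 57.3). The whole list had 49.6% and 20.6% in these classes. From 150 to under 200 nt, 8 of 30 were overlapped, 26.7% (14.2 to 44.4), where the whole list had 20.2%. From 200 to under 300 nt, 16 of 39 were, 41.0% (27.1 to 56.6), where the whole list had 28.4%. In the gene the share thus did not rise evenly with width. A wide region has more room to be overlapped, so the width classes are not free of the overlap rule.

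**Figure D4:**
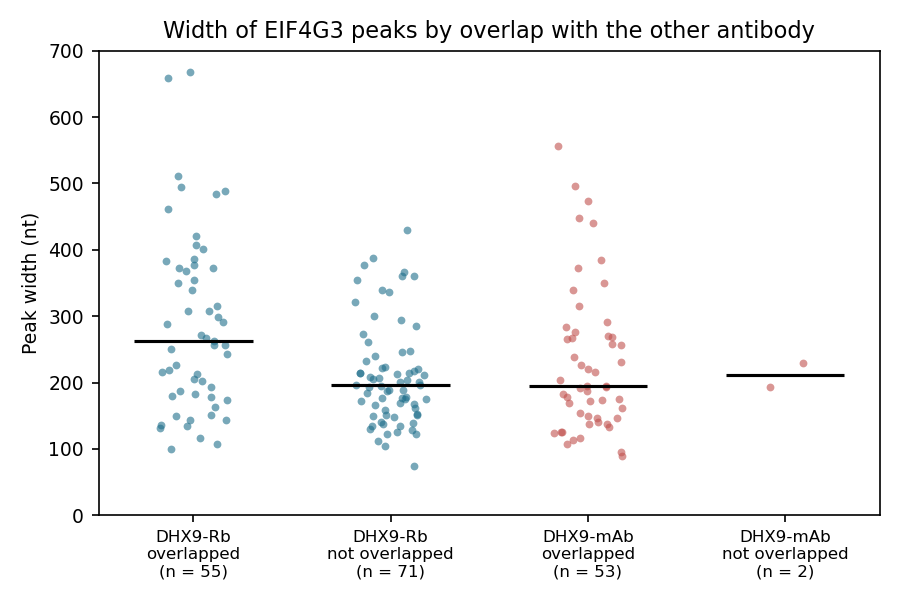
Width in nt of each EIF4G3 peak (points) by antibody and by overlap with the other antibody; black lines are medians. Overlapped DHX9-Rb peaks have a median of 263 nt and the others 196 nt, with broad overlap of the 2 sets, and only 2 DHX9-mAb peaks lack a partner.

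In most overlapping pairs the midpoints differed by less than the width of the DHX9-mAb peak. Overlap itself keeps midpoints closer than the mean of the 2 widths, so this closeness is partly set by how pairs were picked. For the 53 DHX9-mAb peaks with a partner, the midpoint lay a median of 46 nt from that of the DHX9-Rb peak it overlapped most (interquartile range 22.5 to 153). Over the whole list the median was 35.5 nt (14 to 81). In 8 of the 53 pairs the distance exceeded the width of the DHX9-mAb peak itself. The DHX9-mAb midpoint was nearer the 5′ end of the gene in 26 pairs and nearer the 3′ end in 27. The DHX9-mAb peak was the narrower one in 41 of the 53 pairs (77.4%), where the whole list had 68.0%. It lay wholly inside its partner in 21 pairs (39.6%, 27.6 to 53.1), where the whole list had 36.1%. Of the 55 overlapped DHX9-Rb peaks, 9 (16.4%) contained or touched 2 DHX9-mAb peaks, among them the 659 nt region chr1:21499372-21500030. Over the whole list, 9.31% of the overlapped DHX9-Rb peaks met 2 or more.

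Some sites matched almost to the base. Both edges agreed within 10 nt in 4 of the 55 DHX9-mAb peaks (7.27%, 2.86 to 17.3), where 4.14% of the whole list did. One was the pair at chr1:21336118-21336213 described above. A pair of neighbouring sites lay 33.2 and 33.5 kb inside the gene, where DHX9-mAb had chr1:21469661-21469797 and chr1:21469936-21470109 and DHX9-Rb had chr1:21469660-21469803 and chr1:21469935-21470117. The fourth was chr1:21472931-21473122, matched by chr1:21472926-21473128. With DHX9-mAb these 4 sites were 96 to 192 nt wide, all below the gene's DHX9-mAb median of 195 nt.

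Only 2 DHX9-mAb peaks of the gene had no DHX9-Rb partner. The peak chr1:21491741-21491934, 194 nt wide, ended 64 nt short of the DHX9-Rb peak chr1:21491999-21492366 within the group nearest the 5′ end. The peak chr1:21451845-21452074, 230 nt wide, stood apart, with the nearest DHX9-Rb peak 1538 nt away.

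All peaks of both lists within EIF4G3 lay on its own strand. Neither list had a plus-strand peak within the gene or within 100 kb of either end. In the 100 kb before the 5′ end, the minus strand held a single DHX9-Rb peak, chr1:21549434-21549535, 46.1 kb away, and no DHX9-mAb peak. In the 100 kb beyond the 3′ end lay 21 DHX9-Rb and 5 DHX9-mAb peaks, between 21076875 and 21111476, the nearest 21.5 kb from the gene. The lone DHX9-Rb peak at the 3′ end of EIF4G3 lay 28.2 kb from the nearest of these peaks and 125 kb from the next peak of the gene. In the RefSeq annotation of GRCh38 the nearest protein-coding genes are HP1BP3 on the 3′ side and ECE1 on the 5′ side. Which gene these outer peaks and the lone peak belong to was not tested.

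Among the most crowded windows of the genome, that of EIF4G3 had many peaks, and its antibody balance lay inside the range of the others. On a fixed grid of 100 kb windows taken by strand, 25 windows had at least 50 DHX9-Rb peaks. The window of EIF4G3 had the second most DHX9-Rb peaks (110) and the fourth most DHX9-mAb peaks (49), numbers of the kind the gene was chosen by. DHX9-mAb peaks made up 30.8% of the peaks of both lists in it, and in the other 24 windows from 13.8% to 50.9%. DHX9-mAb overlapped 45.5% of its DHX9-Rb peaks (36.5 to 54.8), and the others ranged from 16.1% to 83.0% with a median of 38.2%. The median DHX9-Rb width of 215 nt ranked 18 among the 25, where the others ranged from 187 to 369 nt.

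Nearest in DHX9-Rb peak number were 4 windows, of which 2 tied for the third place. A plus-strand window of chromosome 1, with peaks from 113503637 to 113584363, had 127 DHX9-Rb and 57 DHX9-mAb peaks, with 42.5% of the former overlapped (34.3 to 51.2). A minus-strand window of chromosome 17, from 1244385 to 1300046, had 81 and 37 peaks and 42.0% overlapped (31.8 to 52.8). The number of DHX9-Rb peaks for each DHX9-mAb peak was 2.24 at EIF4G3, 2.23 and 2.19 in these windows. In a minus-strand window of chromosome 16, from 89800955 to 89881723, it was 1.67, with 90 and 54 peaks and 60.0% overlapped (49.7 to 69.5). There the DHX9-Rb peaks were wider, with a median of 289.5 nt. A plus-strand window of chromosome 5, from 138942530 to 138999934, had 81 DHX9-Rb but 24 DHX9-mAb peaks, a ratio of 3.38, with 29.6% overlapped (20.8 to 40.3). The intervals of all 4 windows overlap that of EIF4G3.

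**Figure D5:**
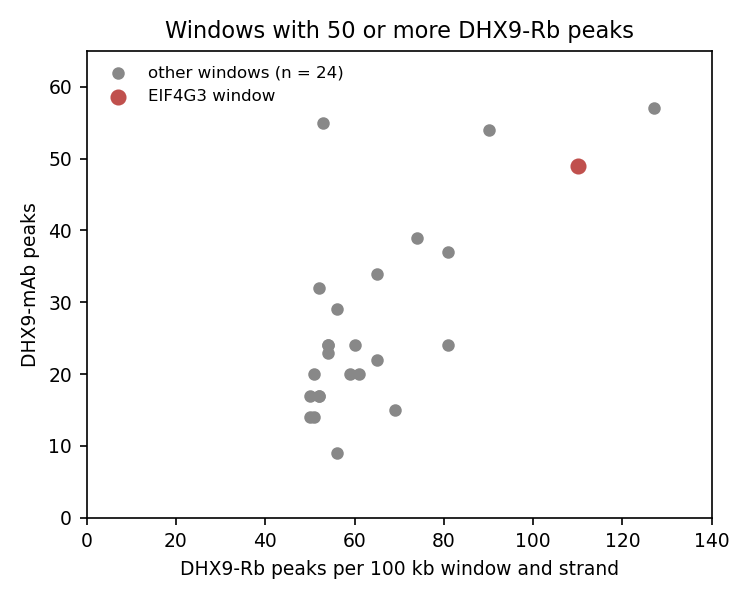
Number of DHX9-mAb peaks (vertical axis) against DHX9-Rb peaks (horizontal axis) in the 25 windows of 100 kb, by strand, with at least 50 DHX9-Rb peaks; each point is 1 window. The EIF4G3 window (red) has 110 DHX9-Rb and 49 DHX9-mAb peaks and lies among the 4 windows with most DHX9-mAb peaks.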

How the data were processed

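Per the labels' protocols, random bases in the adapters served to merge PCR duplicates, and barcodes told antibodies and replicates apart. Control material was pooled with DHX9 material ahead of reverse transcription. Bowtie2 2.2.6 and hg19 come from the submitters' processing notes, and the files name PEAKachu as the peak caller. Not given in the sources used here are its version, settings and control, the handling of repeat reads, and how it used the replicates. As deposited, a line gives the strand and both end positions of 1 region, counted from 1; the score column holds no number.

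EIF4G3, its border and the lists of items to name were chosen with earlier results of these data known. Named were the outermost and widest peaks, DHX9-mAb peaks without partner, the longest runs and gaps, the 3 fullest bins and the 3 windows nearest in DHX9-Rb peak number, with ties. The division at 21450000 is an alternative border. Matched edges and the counts by width class were chosen after the values were seen. Other genes of translation initiation were not described, because no hg19 annotation was used. Peak sequences are not printed, because no hg19 genome sequence was used. A bin or window takes a peak by its midpoint. The overlap and joining steps were tested on simulated data. No p-value was computed. Calculations used Python 3.11.15, NumPy 2.4.6 and pandas 2.3.3, and plots matplotlib 3.10.9.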

Additional observations from a re-analysis of the deposited data

How the results depend on the processing

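Alternatives were joining of peaks less than 50 nt apart, both strands, a minimum width of 150 nt, placement by midpoint, 2 stricter overlap rules and a border moved by 50 kb either way. Of 58 alternative values for 10 results, 51 stayed within 1.5 times the reported count or within the 95% interval of the reported share. The other 7 did not. Many of the 51 could not have moved. The gene had no plus-strand peak, no peak crossed the border or a gene end, and the border moved towards the 3′ end passed no peak. Both strands, midpoints and that border therefore repeated the reported values and test nothing. Some intervals were also wide, such as 34.2 to 100% for the 2 DHX9-mAb peaks of the remaining gene. With the border moved 50 kb towards the 5′ end, the 5′ part held 87.3% of the DHX9-mAb and 69.8% of the DHX9-Rb peaks of the gene. When 50% of the shorter peak had to overlap, 79.2% of DHX9-mAb and 35.7% of DHX9-Rb peaks of the 5′ part had a partner. Shares over the whole lists are not given for this rule, so these values cannot be set against them. When 50% of both peaks had to, these shares were 50.9% and 23.5%, and 9.09% of DHX9-Rb peaks in the remaining gene had one. Over the whole lists, the rule of 50% of both peaks gave 62.1% of DHX9-mAb and 19.6% of DHX9-Rb peaks. A stricter overlap rule can only lower a share, and what else had a part in these changes was not tested. Shares outside the 5′ part rest on 11 DHX9-Rb and 2 DHX9-mAb peaks. No paired analysis was possible because each antibody has 1 list standing for both of its replicates. For the same reason no replicate could be left out.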
